A study of Mus musculus with 16 samples.

Results

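The cytosolic ribosomal protein genes encode the proteins that, with ribosomal RNA, build the small and the large subunit of the ribosome. They were chosen by symbol: every gene beginning with Rpl or Rps and a digit, plus Rplp0, Rplp1, Rplp2 and Rpsa, without the Rps6k kinases, Rps19bp1 and pseudogenes. Of 73 such symbols, 71 had a probe set assigned to that gene alone, 46 of the large and 25 of the small subunit, among 17097 genes measured. Rpl5 and Rps3 were only on probe sets shared with other genes and have no value here. Rps27, Rps27a, Rpl10l and Rps4l were not analysed here, and Fau, whose symbol the rule does not take, is given with the translation genes below.

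The samples were macrophages from the fat of mice aged 19 to 21 weeks, measured on 16 arrays. The control, labelled WT, carries floxed Sucnr1 alleles (Sucnr1flox/flox). The knockout, labelled KO here, is LysM-Sucnr1-/-, which lacks the succinate receptor Sucnr1 through Cre under the lysozyme M promoter, active in myeloid cells and so not in macrophages alone. SAT is subcutaneous and VAT visceral adipose tissue. The sample titles call the WT arrays untreated and the KO arrays treated with KO-LysM, the name of the knockout group. No other treatment is named beyond the letters NCD, which the labels leave unexplained. Each of the 4 groups (WT SAT, WT VAT, KO SAT, KO VAT) has 4 pools, numbers 1 and 2 on day 1 and numbers 3 and 4 on day 2. One label gives selection with CD11b beads and another F4/80+ cells. RNA from 300000 cells passed through 24 cycles of amplification. The labels do not say which animals entered a pool, so p-values measure the spread between pools only.

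In growing cells these genes are transcribed at high rates and in fixed proportion, since most of the proteins are present as a single copy in each ribosome. Their mRNAs begin with a C followed by a run of pyrimidines, the 5′ terminal oligopyrimidine (TOP) tract, through which the kinase mTORC1 and the RNA-binding protein Larp1 control translation. A few members have paralogues with a narrower pattern of expression: Rpl3l replaces Rpl3 in striated muscle, Rpl39l replaces Rpl39 in male germ cells, and Rpl22l1 substitutes for Rpl22.

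Promoter sequence was found for 59 of the 73 symbols in RefSeq (GRCm38.p6), in 70 windows of 250 bases before to 50 after an annotated start. A TOP tract, taken as C followed by at least 4 pyrimidines beginning within 5 bases of the start, was in 28 of 70 member windows (40%), against 18.3% of all 32851 windows. The word CCGGAAG, bound by the factor GABP, was on either strand of 26 (37.1%, against 8.86% of all windows), and AGATGGC, bound by YY1, on either strand of 9 (12.9%, against 6.40%). A match describes letters only. Below are 60 bases, from 40 before the start, for 2 constitutive members (Rps6 and Rpl39) and for the paralogues and Rpl14, whose values the results turn on. Capitals mark the TOP tract and, in Rps27l, also the word CCGGAAG. Rps6 lies at chr4:86857348-86857407 (minus strand), Rpl39 at chrX:37085203-37085262 (minus), Rpl39l at chr16:10170188-10170247 (plus), Rpl22l1 at chr3:28805468-28805527 (plus), Rps27l at chr9:66946046-66946105 (plus), Rpl14 at chr9:120571477-120571536 (plus) and Rpl3l at chr17:24727786-24727845 (plus).
Rps6: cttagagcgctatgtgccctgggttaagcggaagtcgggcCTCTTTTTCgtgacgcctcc
Rpl39: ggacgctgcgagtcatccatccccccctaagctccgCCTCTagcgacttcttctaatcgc
Rpl39l: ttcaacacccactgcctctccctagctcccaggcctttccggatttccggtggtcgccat
Rpl22l1: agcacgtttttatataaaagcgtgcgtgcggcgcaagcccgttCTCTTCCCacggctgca
Rps27l: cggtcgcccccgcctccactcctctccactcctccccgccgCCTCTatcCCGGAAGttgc
Rpl14: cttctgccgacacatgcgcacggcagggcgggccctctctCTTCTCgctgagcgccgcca
Rpl3l: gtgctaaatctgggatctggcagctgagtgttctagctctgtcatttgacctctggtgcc
Rpl39 has a TOP tract at its start and its paralogue Rpl39l has none by this rule, and neither has Rpl3l. For Rpl22 the reverse holds: it has none in its windows, while its paralogue Rpl22l1 has a tract, as has Rps27l. Of constitutive members not shown, Rplp0, Rpsa, Rps15, Rpl4 and Rps16 have none by this rule, while Rps2 and Rpl13a have a tract. The rule counts only a tract beginning within 5 bases of the annotated start. A miss therefore does not show that the mRNA lacks a TOP tract. As found by this rule, the tract does not set the paralogues apart from the other members.

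Several facts of the arrays bear on every value. Values are log2 levels on the deposited scale, which runs from 2.91 to 13.19, and levels of different genes cannot be ranked, because each probe set has its own brightness. The level of 41 olfactory receptor genes, taken as background, had a median of 4.06 and a 95th percentile of 4.78. The Sucnr1 probe set read 3.35 to 3.65 on all 16 arrays, which is background, so it does not check the genotype labels. Macrophage markers averaged 7.73 to 8.98 over the arrays. Some genes outside the family went against the labels. Svs4, a seminal vesicle secretion gene, read 11.04 to 11.78 in the libraries labelled KO SAT, 3.79 to 7.30 in WT SAT and 3.69 to 3.88 in both VAT groups, although the seminal vesicle lies beside visceral and not subcutaneous fat. Akr1c18, a steroid dehydrogenase gene, read 8.25 to 8.99 in WT SAT and 9.99 to 10.31 in KO VAT, but 4.75 to 5.14 in WT VAT and 4.99 to 5.47 in KO SAT. Skeletal muscle markers averaged 6.64 to 7.41 in WT SAT, 5.32 to 5.79 in KO VAT and 4.60 to 5.02 in the other two groups. Directions below follow the labels; whether the depot labels of the KO arrays are exchanged cannot be told from them. In these bulk samples, fewer cells of a type and less RNA per cell cannot be told apart.

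Most ribosomal protein genes differed little between the groups. The range of the 4 group means had a median of 0.168 log2 over the 71 members and of 0.344 over all 17097 genes. It was under 0.3 for 57 of the 71 members (80.3%), against 42.2% of all genes. It was over 1 for 3 members, Rpl39l, Rpl22l1 and Rpl14, of 922 genes in all. The probe sets of these 3 ranked 68, 69 and 67 of the 71 in brightness. Within groups, the residual standard deviation was 0.115 at the median member against 0.172 over all genes. The median member lay at percentile 98.5 to 99.1 of all genes over the arrays. These comparisons therefore set mostly bright probe sets against genes of every level, and the part of level in them was not tested. The members moved together from array to array: the median correlation of residuals between members was 0.80 over 2485 pairs, of which 92.7% were above 0. The 16 arrays share processing and amplification but differ in spread, as given below. No such correlation was computed for other genes. The fit held 1 day term for all groups, so the day split within WT VAT stays in these residuals. The correlation is a description only.

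**Figure D1:**
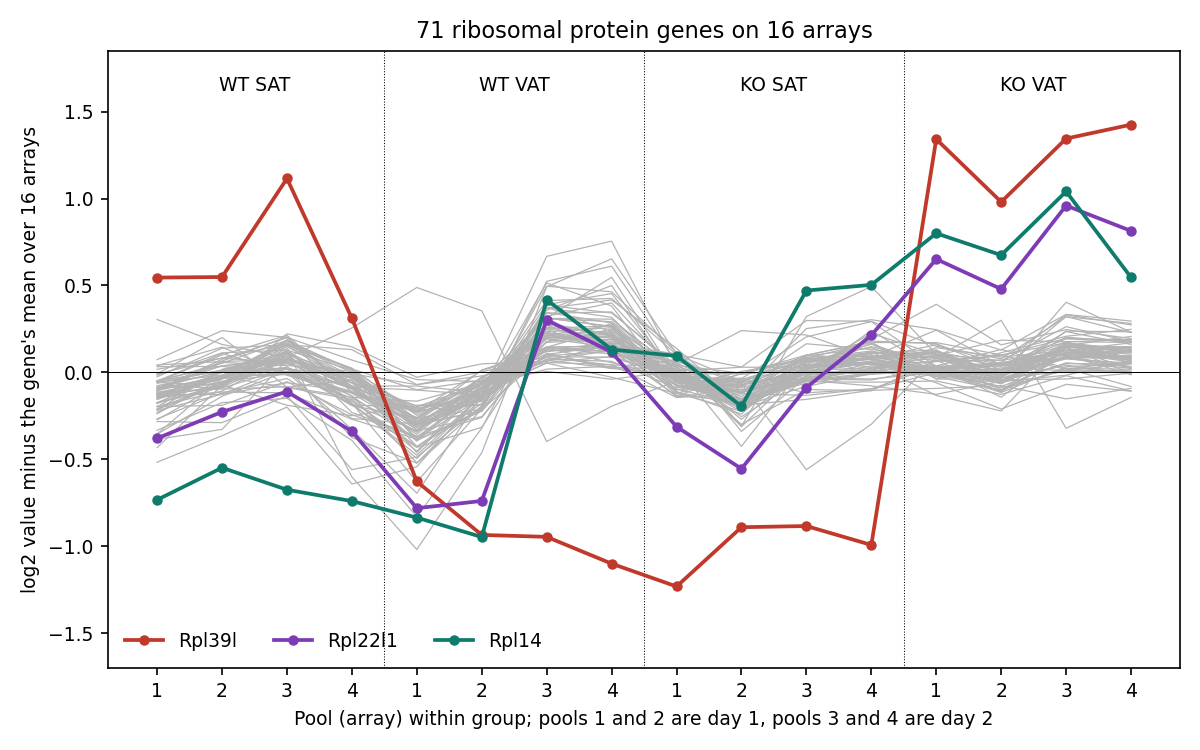
Each line is 1 of 71 ribosomal protein genes, as the log2 value on an array minus that gene's mean over the 16 arrays, with pools 1 to 4 of the groups WT SAT, WT VAT, KO SAT and KO VAT from left to right. Grey lines rise and fall together, with the 2 WT VAT arrays of day 1 low and the 2 of day 2 high, while Rpl39l, Rpl22l1 and Rpl14 (coloured) leave the bundle.

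The constitutive members with the brightest probe sets stayed within a narrow range. Others were wider: the range of group means was 0.56 for Rpl36a, 0.51 for Rps13 and 0.37 for Rps19. Rps6, the small-subunit protein phosphorylated by S6 kinase, averaged 11.87 ± 0.03 in WT SAT and 12.03 ± 0.11 in KO SAT (SD, n = 4 pools, as throughout), and lay at 11.72 to 12.18 in WT VAT and 11.94 to 12.07 in KO VAT. Rpsa, the small-subunit protein also known as the laminin receptor, averaged 11.97 ± 0.09 and 11.99 ± 0.14 for the WT depots (SAT first) and 12.05 ± 0.08 and 12.11 ± 0.03 for the KO depots. Rps2, whose probe set was the brightest of the family, averaged 12.51 ± 0.03, 12.66 ± 0.18, 12.65 ± 0.09 and 12.66 ± 0.07 in the same order. The probe sets of Rps2, Rpsa and Rps6 ranked 1, 2 and 3 of the 71 in brightness. The groups of each of these genes differed by less than 0.2 in the mean. None of these passed in any of the 5 comparisons below.

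The stalk of the large subunit, which recruits the elongation factors, is made of Rplp0, Rplp1 and Rplp2. Rplp0 averaged 11.51 ± 0.11 and 11.48 ± 0.24 for the WT depots and 11.47 ± 0.11 and 11.52 ± 0.07 for the KO depots, SAT first. Rplp1 lay between 10.43 and 10.93 on the 16 arrays, and Rplp2 between 10.16 and 10.76. None of the 3 passed. Rpl11, which also binds Mdm2 outside the ribosome, changed by no more than 0.03 in either direction and did not pass. Rpl13a, also a component of an interferon-induced translational silencing complex, changed by −0.08 to 0.10 in the 4 comparisons of groups and did not pass. Rpl22, Rpl10, Rpl7, Rpl36a, Rpl36al, Rpl7l1, Rpl39, Rps4x and Rps19 did not pass either. The widest within-group scatter was that of Rpl7l1, Rpl14 and Rps9, and the narrowest that of Rps15, Rpl37a and Rpl21. Rpl7l1, a paralogue of Rpl7 that works in ribosome assembly, read 7.83 and 8.38 in WT VAT on day 1 and 9.34 and 9.50 on day 2. Rps9 read 9.10 and 9.43, then 10.12 and 10.09, in the same pools. Both were low on day 1 and high on day 2 within that group.

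The only member called in all 5 labelled comparisons was Rpl39l. It is the germ-cell paralogue of Rpl39, a small protein that lines the exit tunnel of the large subunit. Rpl39l read 6.59, 6.60, 7.16 and 6.36 in pools 1 to 4 of WT SAT. It read 5.42, 5.11, 5.10 and 4.95 in WT VAT. The KO SAT values were 4.82, 5.16, 5.16 and 5.05, and those of KO VAT 7.39, 7.03, 7.39 and 7.47. WT SAT and KO VAT were high, WT VAT and KO SAT were low, and no array of a high group overlapped one of a low group. The low values, from 4.82 to 5.42, lay close above the 95th percentile of the olfactory receptor genes (4.78). By limma, the log2 change of VAT against SAT was −1.53 ± 0.16 (SE; adjusted p = 7.64e-05) in WT and 2.27 ± 0.16 (adjusted p = 4.38e-07) in KO. The change of KO against WT was −1.63 ± 0.16 in SAT (adjusted p = 1.83e-05) and 2.18 ± 0.16 in VAT (adjusted p = 1.77e-06). The knockout effect of VAT less that of SAT was 3.81 ± 0.22 (adjusted p = 4.43e-08). Akr1c18 was high in the same groups. Across the labels, KO VAT minus WT SAT was 0.64 ± 0.16 (adjusted p = 0.00746) and KO SAT minus WT VAT was −0.10 (adjusted p = 0.671), 2 comparisons chosen after the values were seen. Those comparisons called 11 members higher and 1 lower (median 0.12, against 39.3% of all genes called) and none (against 6.89%; 6 members had an unadjusted p under 0.05 by limma). Rpl39 itself averaged 10.30 ± 0.20, 10.45 ± 0.46, 10.59 ± 0.19 and 10.68 ± 0.15 for WT SAT, WT VAT, KO SAT, KO VAT, and passed in none of the 5 labelled comparisons. Other lists had their higher means in the same groups. In the order WT SAT, WT VAT, KO SAT, KO VAT, skeletal muscle markers averaged 6.99, 4.88, 4.68 and 5.55, and erythroid markers 7.37, 6.11, 6.29 and 7.30. T cell markers averaged 5.89, 5.14, 4.93 and 5.30, and cell cycle genes 6.24, 6.08, 6.09 and 6.38. Macrophage markers, by contrast, had their lowest mean in KO VAT (8.74, 8.34, 8.71 and 8.08). Their part in the Rpl39l values was not tested.

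Rpl22l1, the paralogue that substitutes for Rpl22, was highest in KO VAT. It read 6.11, 5.94, 6.42 and 6.28 in KO VAT. It read 5.15, 4.91, 5.37 and 5.67 in KO SAT, and 5.08, 5.23, 5.35 and 5.12 in WT SAT. In WT VAT it read 4.68 and 4.72 on day 1 but 5.76 and 5.58 on day 2. The day 1 values lay under the 95th percentile of the olfactory receptor genes (4.78). All 4 KO VAT arrays lay above every array of the other 3 groups. By limma it was higher in KO VAT than in KO SAT by 0.91 ± 0.15 (SE; adjusted p = 0.00234) and than in WT VAT by 1.00 ± 0.15 (adjusted p = 8.68e-04), the latter not on day 2 alone. The difference of the knockout effects was 0.92 ± 0.21 (adjusted p = 0.0210), and it did not pass when arrays were median centred, quantile normalized or fitted without day, nor in day 2 alone, nor without any one of WT SAT pool 1, KO SAT pool 2, KO SAT pool 3 and KO VAT pool 1. Rpl22 averaged 9.06, 9.04, 8.97 and 9.01 for WT SAT, WT VAT, KO SAT, KO VAT.

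Rpl14, a large-subunit protein with no paralogue among the members, was higher in KO in both depots. It read 6.23, 6.42, 6.29 and 6.23 in WT SAT and 7.06, 6.77, 7.44 and 7.47 in KO SAT, with no overlap. In WT VAT it read 6.13 and 6.02 on day 1 and 7.38 and 7.10 on day 2, and in KO VAT 7.77, 7.64, 8.01 and 7.51. The 2 WT VAT arrays of day 2 came closest to KO. By limma KO was above WT by 0.89 ± 0.21 in SAT (adjusted p = 0.00688) and by 1.07 ± 0.21 in VAT (adjusted p = 0.00447). The first did not pass in day 1 alone or with array spread as a term. The second did not pass in day 2 alone or without the 4 arrays of smallest spread. Those arrays were WT SAT pools 1 and 4 and WT VAT pools 1 and 2. WT VAT thus kept only its day 2 pools there, so these 2 settings are not separate checks. The test of the difference between these effects did not pass (0.18 ± 0.29, adjusted p = 0.889).

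**Figure D2:**
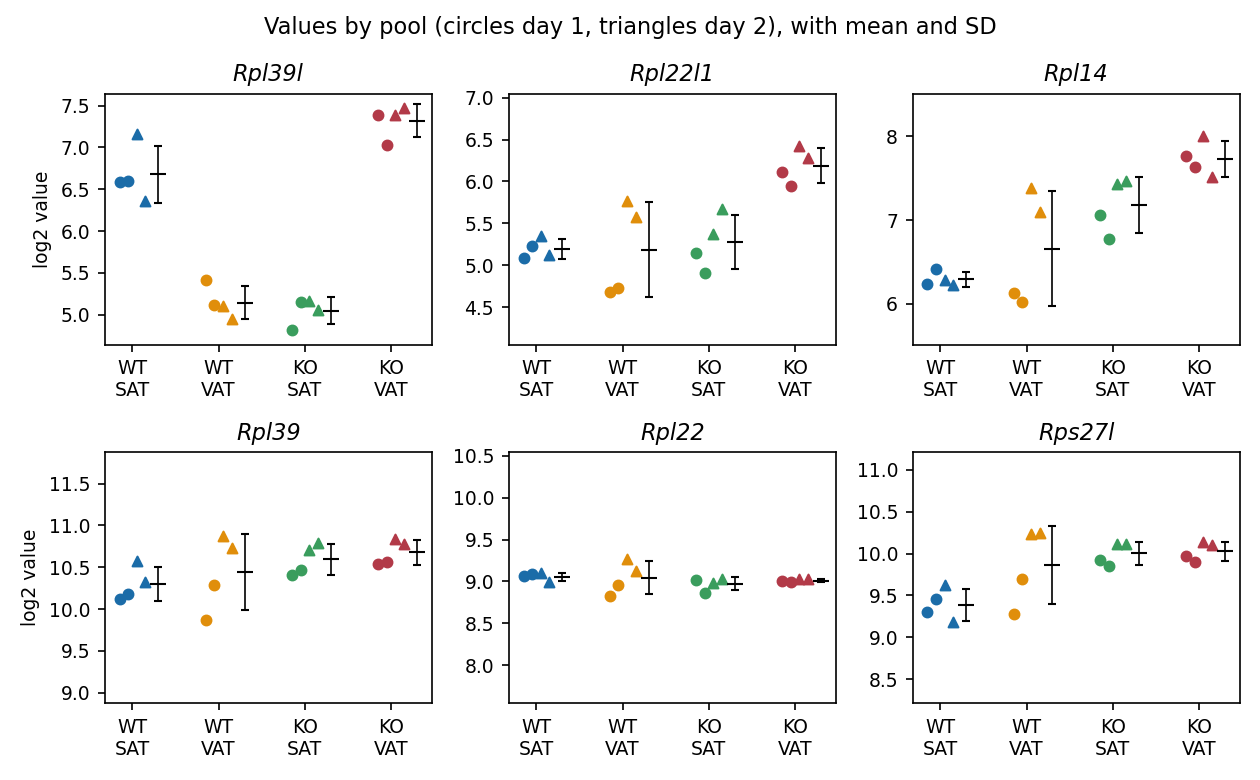
Log2 level (vertical axis, each gene its own scale) of 6 members by group, with each pool as a circle (day 1) or triangle (day 2) and the group mean and SD beside it. Rpl39l sits high in WT SAT and KO VAT only, Rpl22l1 highest in KO VAT, while Rpl39 and Rpl22 overlap across groups.

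In the comparison of VAT with SAT in WT, which asks how the depots differ without the knockout, 1 of the 71 members was called, lower (Rpl39l), against 2.84% of all genes called (1.52% higher, 1.32% lower). The median member changed by 0.03 and the median gene by −0.02. The Rpl39l arrays of the groups did not overlap, and no other member was free of overlap, against 1.64% of all genes higher and 2.16% lower without overlap. The 95% confidence interval lay within ±0.3 log2 for 45 members and within ±0.5 for 60. Rps27l, a paralogue of Rps27 induced by p53, had the value 0.47 ± 0.14 without passing (adjusted p = 0.0977 by limma).

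In KO, VAT minus SAT called 2 members, both higher (Rpl39l and Rpl22l1), against 4.32% of all genes (1.92% higher, 2.39% lower). The median member was at 0.08 and 66 of 71 were above 0, whereas the median of all genes was 0.00. Of the 71 members, 9 were higher without overlap between the groups, and none lower, against 5.23% and 5.03% of all genes. The interval lay within ±0.3 for 39 members.

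KO minus WT in SAT called 7 members, 3 higher and 4 lower, against 36.7% of all genes (16.7% higher, 20.0% lower). The median member was at 0.04 and the median gene at −0.05, but the sign of the member median turned with scaling: it was 0.14 with arrays centred on the median, −0.10 after quantile normalization and −0.20 with array spread as a term. Higher were Rpl14, Rps27l and Rps15a, and lower were Rpl39l, Rpl3l, Rpl17 and Rps15. Rps27l read 9.30, 9.46, 9.62 and 9.18 in WT SAT and 9.92, 9.85, 10.12 and 10.11 in KO SAT. The groups did not overlap, and the change was 0.61 ± 0.14 (SE; adjusted p = 0.00677 by limma), with 3 of its 3 probe sets passing; it was lost in day 1 alone and with array spread as a term. Rpl3l, the muscle paralogue, read 5.46, 5.31, 5.24 and 5.41 in WT SAT and 5.10, 5.09, 4.59 and 4.85 in KO SAT. The value of 4.59 lay under the 95th percentile of the olfactory receptor genes (4.78), so this gene is near background. The change was −0.44 ± 0.12 (adjusted p = 0.0142 by limma), lost without WT SAT pool 4, without a day term, in day 1 alone and with array spread as a term. All 12 measured skeletal muscle markers fell in the same comparison, from a mean of 6.99 to 4.68; their part in the Rpl3l value was not tested. Rps15, a small-subunit protein with the narrowest scatter in the family, read 10.54, 10.70, 10.72 and 10.69 in WT SAT and 10.42, 10.44, 10.43 and 10.47 in KO SAT. It changed by −0.22 ± 0.06 (adjusted p = 0.0141 by limma), but its second probe set gave 0.07, and the call was lost in either day alone, with the mean over probe sets, with median centring and with array spread as a term. Rpl17, a large-subunit protein, changed by −0.29 ± 0.08 (adjusted p = 0.0156) on the probe set used, but its 2 others gave 0.89 and −0.25, so its direction is not settled. Rps15a, a small-subunit protein, was called at 0.31 ± 0.09 (adjusted p = 0.0165) but its mean in all 4 groups lay under the 95th percentile of the olfactory receptor genes (16-array mean 4.59), and the call was lost without WT SAT pool 4, in day 1 alone and with array spread as a term. Without overlap 6 members were higher and 5 lower, against 16% and 20.0% of all genes. The interval lay within ±0.3 for 41 members.

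KO minus WT in VAT called 5 members, all higher, against 15.9% of all genes (10.2% higher, 5.76% lower). The median member was at 0.07 and the median gene at −0.05, and here too the sign turned: 0.13 when centred, −0.04 after quantile normalization and −0.08 with array spread as a term. The members called were Rpl39l, Rpl14, Rpl22l1, Rps20 and Rpl3. Rps20, a small-subunit protein, read 11.34, 11.60, 11.77 and 11.69 in WT VAT and 11.72, 11.83, 11.92 and 11.96 in KO VAT, overlapping, for a change of 0.26 ± 0.07 (SE; adjusted p = 0.0304 by limma). Rpl3, the large-subunit protein at the peptidyl transferase centre, read 11.15, 11.39, 11.55 and 11.50, then 11.58, 11.66, 11.66 and 11.67, for a change of 0.24 ± 0.08 (adjusted p = 0.0436). Each of these calls was lost in 10 of 13 other settings. Leaving out 1 pool at a time lost the Rpl3 call in 12 of 16 fits and the Rps20 call in 5 of 16. Without overlap 6 members were higher and 1 lower, against 6.48% and 5.64% of all genes. The interval lay within ±0.3 for 33 members.

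The difference of the knockout effects, VAT less SAT, called 2 members, both higher (Rpl39l and Rpl22l1), against 4.22% of all genes (2.10% higher, 2.12% lower). The median member was at 0.04, and for 12 members the interval lay within ±0.3, so smaller differences of effect could not be resolved for the rest. These 5 comparisons share groups, so their values are set side by side and not counted together.

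**Figure D3:**
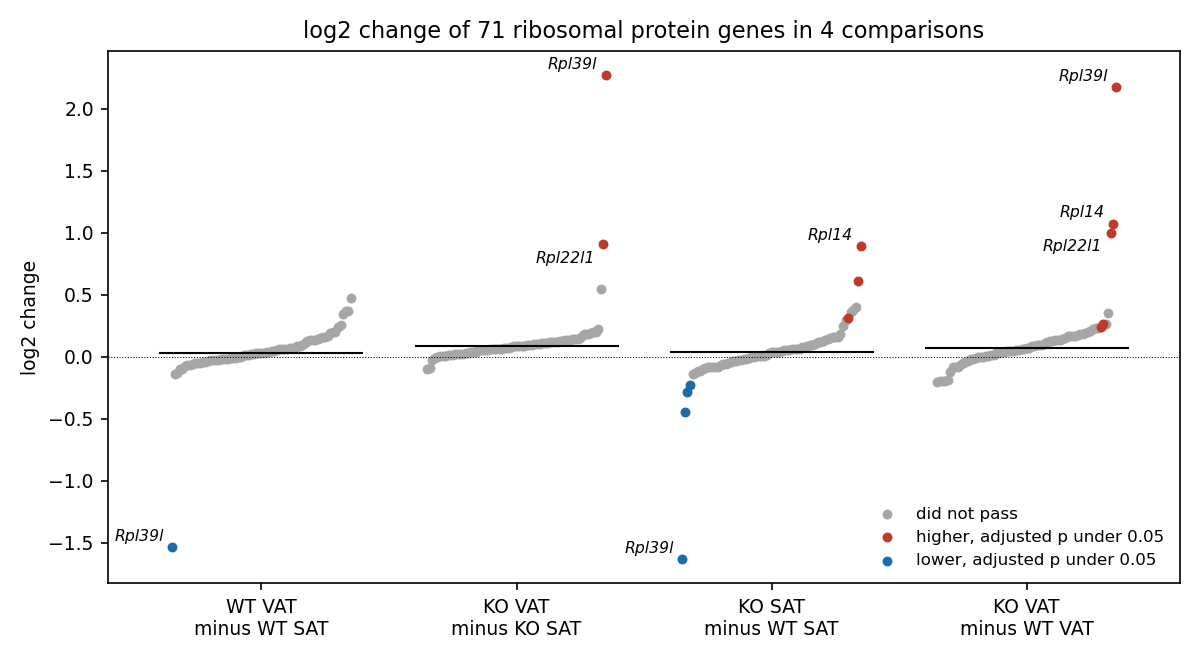
Log2 change of each of 71 members (points, ordered by size within a comparison) in 4 comparisons, with a horizontal line at the median member. Grey points did not pass; Rpl39l is the lowest point in WT VAT minus WT SAT and KO SAT minus WT SAT and the highest in the other two.

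The number and direction of member calls in the knockout comparisons moved with how the arrays were scaled. The interquartile range of all genes, a measure of array spread, was 2.40 to 2.68 in WT SAT and 2.77 to 3.15 in KO SAT, with no overlap. It was 2.18 and 2.45 in WT VAT on day 1 and 2.99 and 3.04 on day 2, and 2.78 to 3.18 in KO VAT. The median over the members of each array was 10.50 and 10.66 in WT VAT on day 1 and 11.02 and 10.94 on day 2, so the family was lowest on the array of smallest spread. With array spread as a term, KO minus WT in SAT called 0 members higher and 20 lower, and in VAT 3 higher and 12 lower. Quantile normalization gave 3 higher and 21 lower in SAT, and 3 and 10 in VAT. Centring each array on its median gave 7 higher and 2 lower in SAT, and 6 and 0 in VAT. Over all 17097 genes, the SAT comparison had 2859 higher and 3420 lower as deposited, 3592 and 1727 when centred, 2347 and 2210 after quantile normalization, and 418 and 910 with array spread as a term. The VAT comparison had 1740 and 984, then 1900 and 574, then 1695 and 1231, then 788 and 1084. Array spread and genotype cannot be told apart in SAT. Rpl39l kept its direction and its call in all of these settings.

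**Figure D4:**
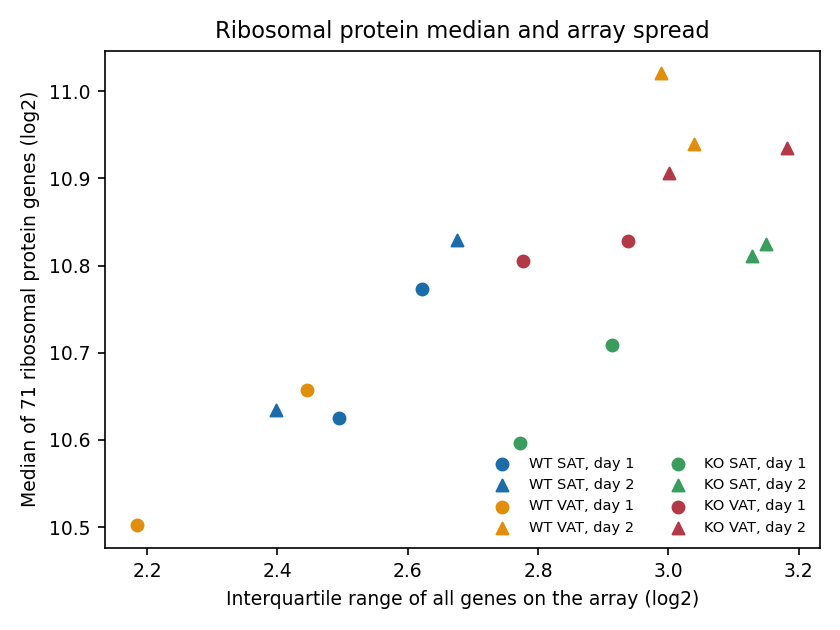
Median log2 level of 71 ribosomal protein genes (vertical) against the interquartile range of all 17097 genes (horizontal) for 16 arrays, coloured by group, with circles for day 1 and triangles for day 2. WT VAT arrays span from 10.50 at a spread of 2.18 to 11.02 at 2.99.

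The days also gave different values. In day 1 alone, KO minus WT in VAT called 13 members, all higher, with a median of 0.24, while 3064 of all 17097 genes were higher and 2312 lower. In day 2 alone it called 1 member higher and 1 lower, with a median of −0.09, against 232 and 99 of all genes. In SAT the day 1 arrays called 0 members higher and 1 lower, against 421 and 161 genes, and the day 2 arrays 6 higher and 2 lower, against 3366 and 3132. VAT minus SAT in WT called 18 members higher and 2 lower on day 2 alone, against 2577 and 1645 genes, and 1 lower on day 1 alone, against 32 and 167.

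**Figure D5:**
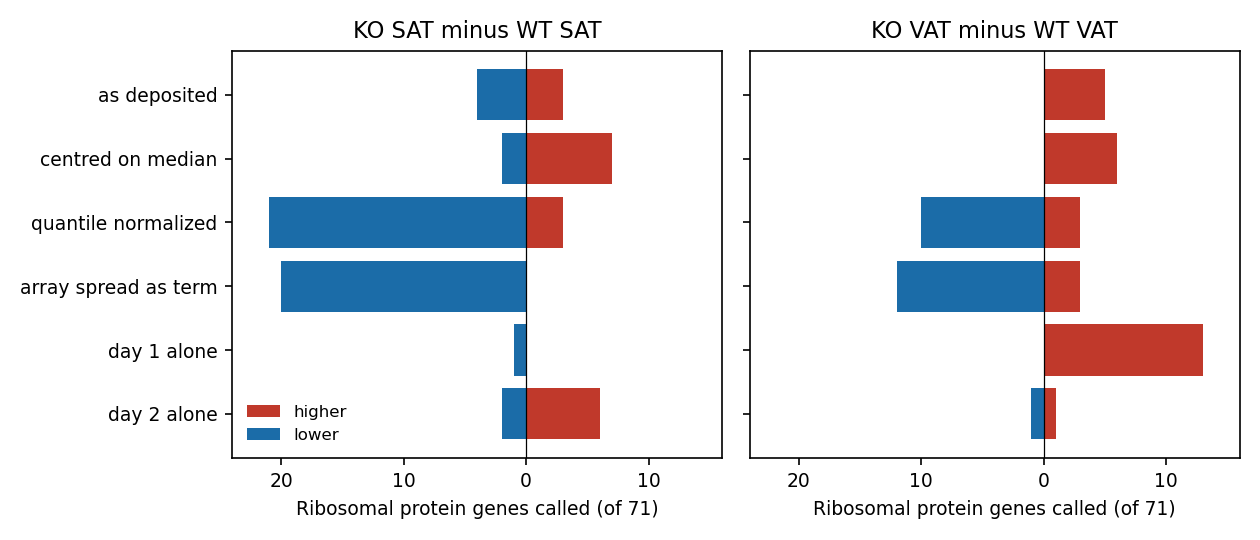
Number of the 71 members called higher (right of 0) and lower (left of 0) in KO minus WT, for SAT and VAT, under 6 settings. Calls are mostly lower after quantile normalization or with array spread as a term, and mostly higher in VAT on day 1 alone.

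Other genes of ribosome production are given for comparison. Of 33 ribosome assembly factors, 12 were called higher and none lower in KO minus WT in SAT (median 0.44), against 16.7% of all genes called higher. Rrs1, an assembly factor of the large subunit, changed by 0.67 ± 0.11 (adjusted p = 0.0013 by limma), Gar1, a protein of the snoRNPs that modify rRNA, by 0.78 ± 0.15 (adjusted p = 0.00226), and Ncl, nucleolin, by 0.90 ± 0.18 (adjusted p = 0.00359). In the same SAT comparison, 9 of 10 T cell markers were called lower and 1 higher, and 5 of 8 B cell markers lower. Of 10 endothelial markers 6 were called higher, and of 11 stromal markers 6 were higher and 2 lower. Over all genes, 16.7% were called higher and 20.0% lower. The 5′ probe set of 18S rRNA read 12.65 to 12.72 in WT SAT and 12.32 to 12.61 in KO SAT, and the 3′ less 5′ value of Gapdh was 0.02 to 0.08 and −0.06 to −0.0052, neither with overlap. Their part in these counts was not tested. In VAT 5 of 33 were called higher (median 0.34), among them Nop10 at 0.64 ± 0.16 (adjusted p = 0.0173 by limma) and Ltv1 at 0.85 ± 0.23 (adjusted p = 0.0258). With array spread as a term, a setting applied to these lists after seeing the data, these counts became 0 higher and 8 lower in SAT and 0 and 5 in VAT. Of 12 genes of RNA polymerase I, which transcribes rRNA, 5 were called higher in SAT and 3 in VAT, where 10.2% of all genes were called higher, and Twistnb, a subunit of it, passed in both at 0.82 ± 0.15 and 0.87 ± 0.15 (adjusted p = 0.00207 and 0.00234 by limma). With array spread as a term, 0 were higher and 1 lower in SAT, and 1 and 1 in VAT. Of 73 mitochondrial ribosomal protein genes, 14 were called higher and 1 lower in SAT, and 12 and 1 in VAT, against 1 and 10, then 3 and 10, with array spread as a term. Mrpl44 was the smallest in p in both, at 1.13 ± 0.18 in SAT and 0.97 ± 0.18 in VAT (adjusted p = 0.00089 and 0.00356 by limma).

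A further list held translation factors and other genes whose mRNAs carry TOP tracts. Of 18 such genes, Fau included, 4 were called higher in KO minus WT in SAT (median 0.11) and 3 in VAT (median 0.19), against 16.7% and 10.2% of all genes, and none by limma in the other 3 comparisons (1 of them at an unadjusted p under 0.05, in KO between depots). Eif3m, a subunit of initiation factor 3, changed by 0.64 ± 0.20 in SAT (adjusted p = 0.0229 by limma), and Eef1b2, an exchange factor of elongation, by 0.34 ± 0.10 in VAT (adjusted p = 0.033). Fau, which encodes a ribosomal protein fused to a ubiquitin-like domain, passed in none. With array spread as a term, the list had 0 higher and 2 lower in SAT and no call in VAT. Of 19 regulators of ribosome production, 2 were higher and 1 lower in SAT, against 16.7% and 20.0% of all genes. Larp1, which binds TOP mRNAs, was higher by 0.64 ± 0.22 (adjusted p = 0.0344 by limma), and Ddit4, an inhibitor of mTORC1, by 0.87 ± 0.30 (adjusted p = 0.0345). In VAT 3 were higher and 1 lower, against 10.2% and 5.76% of all genes, with Ddit4 at 0.94 ± 0.30 (adjusted p = 0.0452 by limma). With array spread as a term these regulators had 0 higher and 4 lower in SAT and 1 and 2 in VAT.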

How the data were processed

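Adipose tissue macrophage RNA from 16 pools was measured on mouse Affymetrix perfect-match arrays. Values were deposited on a log2 scale, 1 per probe set, after RMA in affy by the authors, per the submitters' processing notes. No version or normalization step is given in the sources used here. The deposited arrays do not share 1 distribution: their interquartile range ran from 2.18 to 3.18 and their 95th percentile from 8.82 to 9.74. The main counts therefore rest on arrays of unequal spread. The 45141 probe sets include 104 controls. The probe table lists 29449, of which 28898 name 1 gene and 551 several. For 17097 genes the single-gene probe set with the highest overall mean was kept; 21 of the 71 members' probe sets have the x suffix and 6 the s suffix, which mark probes that can bind related transcripts. All 16 arrays entered 1 limma fit (version 3.58.1, R 4.3.3) with group and day, moderated by eBayes. Tests were two-sided, p-values were adjusted over all genes by Benjamini-Hochberg, and 0.05 was the threshold. The fit was tested on simulated data. Arrays have no read depth, and their number limits the precision. The members, lists and rules were chosen with earlier results of these data known. The named members were a fixed list of subunits and paralogues, those that passed, and those of extreme level or scatter; other genes were up to 4 of smallest p per list. Alternatives were another summary of probe sets, filter, scaling, day, array weights, a pool-number block and leaving out each pool. Protein sequences were not used here.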

Additional observations from a re-analysis of the deposited data

Results flagged for a closer look

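The knockout effect differed between the depots for Rpl39l, at 3.81 log2 in VAT minus SAT, and for Rpl22l1, at 0.92, both by the interaction term in limma. Of 124 sample groups of 4 pools tested for a pool far from the others, 3 stood apart by Dixon's criterion, of which chance alone gives about 1 in 20 groups. Rps15 read 10.54 in WT SAT pool 1, against 10.69 to 10.72 in the other pools. Rpl13a read 10.81 in KO SAT pool 2, against 11.04 to 11.07. Rpl3 read 11.58 in KO VAT pool 1, against 11.66 to 11.67.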

How the results depend on the processing

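Counts are of members called, in the order WT depot, KO depot, KO minus WT in SAT, the same in VAT, and the difference of knockout effects; as reported they were 1, 2, 7, 5 and 2. With pool number as a replicate block they were 1, 2, 7, 4 and 2. Each group holds every pool number once, so the block could not change the medians. The 12 within-day correlations of pool differences ran from −0.31 to 0.38 with 3 above 0.1. Between the depots of a genotype they were 0.38 (WT) and 0.34 (KO) on day 1, and −0.02 and −0.0072 on day 2. The third above 0.1 was WT SAT with KO VAT on day 2, at 0.33. Whether pools of the same number share animals is not settled by these values. Without a day term VAT had 3 and the difference 1. Day 1 alone gave SAT 1 and VAT 13, with medians of −0.13 (WT depot), 0.24 (VAT) and 0.24 (difference); day 2 alone gave WT depot 20 and VAT 2, with medians of 0.22, −0.094 and −0.15. With only the groups compared, SAT had 11 and VAT 3, and with the lowest 40% of genes removed VAT had 3. The mean over probe sets gave SAT 15 and VAT 8 and turned Rpl17 to 0.12; leaving out x and s probe sets gave WT depot 2 and SAT 11 and turned Rpl17 to 0.89. Median centring gave the difference 1. Quantile normalization gave 2, 4, 24 and 13, and array spread as a term 2, 4, 20 and 15, with medians of −0.20 (SAT) and −0.084 (VAT). Array weights gave 2, 6, 13 and 3. A setting chosen after seeing the data left out the 4 arrays of smallest spread. These were WT SAT pools 1 and 4 and WT VAT pools 1 and 2, so WT VAT kept only its day 2 pools. WT depot then had 11, KO depot 4, VAT 9 and the difference 4. Leaving out 1 pool at a time gave counts of 1 to 6, 2 to 2, 5 to 12, 3 to 6 and 1 to 3, and medians of −0.02 to 0.11, 0.07 to 0.11, −0.03 to 0.06, −0.0044 to 0.12 and −0.03 to 0.10. WT VAT pool 1 alone moved WT depot to 6, SAT to 12 and VAT to 3; any KO VAT pool moved VAT to 3; and WT SAT 1, KO SAT 2, KO SAT 3 or KO VAT 1 moved the difference to 1. The number of all genes called moved with the setting too. In SAT it was 2859 higher and 3420 lower as reported, and 418 and 910 with array spread as a term. For the WT depots it was 260 and 226, then 633 and 921. The member counts in this section therefore do not show that members moved apart from other genes. The causes of these shifts were not tested. Rpl39l kept direction and call throughout.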
